A study of Mus musculus with 30 samples.

Results

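BM transcriptomes of vehicle-treated Ob/Ob recipients (Vehicle) and of lean WT recipients (WT) were compared, with 3 libraries per group, so 6 of the 30 libraries of the series, chosen by their labels alone. Ob/Ob mice lack leptin, the fat cell hormone that limits food intake, and become obese. Recipients of both groups were irradiated with 700 and then 400 cGy and transplanted with BM cells of Shp2E76K/+;LysM-Cre+ mice (CD45.2) mixed with as many viable BM cells of Boy/J mice (CD45.1). The labels give C57BL/6J for all groups. The Vehicle group received vehicle over 30 days, starting 8 weeks after transplantation, whereas no treatment is given for WT. The mice were 12 to 14 weeks old and of both sexes per the labels, which call the groups matched for age and sex. The methods of the study transplant adult recipients and start treatment 8 weeks later, which would make them older, so the age at collection is unclear. LysM-Cre is Cre recombinase driven by Lyz2, a gene of myeloid cells, so the mutant allele is switched on mainly in myeloid cells and in only a share of the marrow, next to unmutated competitor cells and to stromal cells of the host, which differ in leptin genotype. The comparison asks what an obese recipient changes in marrow that holds Shp2 E76K cells. It cannot separate obesity from leptin deficiency or from vehicle treatment, because the Ob/Ob group had all of them and WT none, and no library of an obese recipient without mutant cells was analysed here. The study also reports more CD45.2 and fewer CD45.1 cells in the blood of Ob/Ob recipients of mutant cells than in controls. A different share of mutant cells thus cannot be told apart from the group either.

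Shp2, encoded by Ptpn11, is a phosphatase that relays growth factor signals to RAS and ERK, and E76K is an activating mutation found in myeloid leukemia. Interferons bind receptors that activate JAK kinases and STAT factors, and these induce many genes whose products block viruses, load MHC class I molecules and attract lymphocytes. Chronic interferon and cytokine exposure is known to alter marrow output, with effects on stem cells, B cell precursors and myeloid cells. The genes are therefore given by role, from the ligands to the effectors, then by cell type.

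The libraries held 31281097 to 39925495 counts on genes. The biological coefficient of variation between replicates, a measure of their spread beyond counting noise, was 3.51% in BM, so small changes passed the test. The p-values rest on a spread estimated from the BM libraries of all groups of the series, not from these 3 and 3 libraries alone. They measure only the spread between libraries, and whether the libraries of a group are independent of one another was not tested. The p-values are therefore not to be read as measured against the spread between mice. WT replicate 1 stood apart from the other WT libraries, with a chi-square per degree of freedom of 34.8 and 26.6 against WT replicates 2 and 3, where these differed from each other by 2.93 and the Vehicle libraries by 2.49 to 4.21. The libraries went against the label of matched sexes. Xist, the RNA of the inactive X chromosome of female cells, had 2.60, 0 and 2.15 normalized counts in the WT libraries and 6582, 6712 and 6339 in the Vehicle libraries, at least 2230.2-fold higher. The 4 Y-linked genes tested fell without vanishing, Ddx3y with 1681, 1489 and 1547 in WT and 743, 698 and 695 in Vehicle, Kdm5d with 791, 789.5 and 803 in WT and 306, 335 and 317 in Vehicle, Uty with 551, 391 and 406 in WT and 149, 145 and 146 in Vehicle and Eif2s3y with 2776, 2471 and 2398 in WT and 1058, 1105 and 1171 in Vehicle. All 3 Vehicle libraries thus held both Xist and Y-linked transcripts, and the WT libraries held Y-linked transcripts with Xist near 0. Whether these came from donor, competitor or host cells was not tested, and the sex of the cells cannot be told apart from the group.

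The most counted genes included S100a9 and S100a8, of neutrophils and monocytes, and the granule genes Ngp, Chil3 and Lyz2, and erythroid, B cell and monocyte genes were counted too, as whole marrow would hold. Skeletal muscle genes, a sign of tissue carried along, together made up 0.00129%, 0.00119% and 0.00114% of counts in WT and 0.000997%, 0.00108% and 0.00108% in Vehicle. Lyz2, whose locus holds the Cre of the mutant cells, fell, with 444237, 448843 and 453100.1 normalized counts in the WT libraries and 121594, 119911 and 120189 in the Vehicle libraries (log2 fold change -1.90, standard error 0.0199, adjusted p = 9.2e-45, edgeR). Ptpn11 itself had 3395, 3454 and 3528 in WT and 4509.9, 4426 and 4719 in Vehicle and a log2 fold change of 0.40, under the limit used here, and the counts do not separate its mutant and normal alleles. Ptprc, the gene of the CD45 protein that marks both kinds of donor cell, had a log2 fold change of -0.65. The leptin receptor gene Lepr fell in the leptin-deficient recipients (log2 fold change -1.94, standard error 0.204, adjusted p = 4.33e-11, edgeR), and Lep was not analysed here.

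Of 13353 genes tested, 1260 were higher in Vehicle (9.44%) and 1338 lower (10.02%), in all 2598 or 19.5%, by edgeR's quasi-likelihood test with a false discovery rate (Benjamini-Hochberg) below 0.05 and an absolute log2 fold change above 1. These genes are called higher and lower below, and the count of each gene list is to be read against these shares. The lists were chosen with earlier results of these data known, so their counts describe the listed genes and are no independent test. The median log2 fold change of all genes was -0.02. Large changes were mostly increases, with 209 genes above a log2 fold change of 3 and 112 below -3, and 60 above 5 and 18 below -5. Without WT replicate 1, 1263 genes were called higher and 1306 lower, and with genes of the X and Y chromosomes left out 1227 and 1288. Among the genes called and named below, Dnajb9, Gp5, Hoxa9, Nqo1, Pdgfra, Prdm1 and Spred1 lay so near the limit that leaving out 1 library ended the call. Called genes were somewhat unevenly spread over chromosomes, with 14.4% of X-linked genes called lower and 6.01% higher.

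Among well-counted genes, the largest increases were of inflammatory effectors. Nos2, the inducible nitric oxide synthase of activated macrophages, had 0, 0 and 0 normalized counts in the WT libraries and 1813, 1831 and 1712 in the Vehicle libraries, at least 608-fold higher. Saa3, an acute phase protein, went from barely counted to one of the most counted genes, with 25.1, 14.9 and 23.7 normalized counts in the WT libraries and 70778, 73811 and 75149 in the Vehicle libraries (log2 fold change 11.74, standard error 0.0586, adjusted p = 1.3e-49, edgeR). Il22, a cytokine of innate lymphoid and Th17 cells, had 0, 0 and 0 normalized counts in the WT libraries and 215, 289 and 286 in the Vehicle libraries, at least 89.7-fold higher, and Gm15056, a predicted gene, was at least 159-fold higher. Cfb, factor B of the alternative complement pathway, had 128, 159.7 and 128 in WT and 28646, 29032 and 29786 in Vehicle (log2 fold change 7.72, standard error 0.0758, adjusted p = 1.19e-21, edgeR), and 79.5% of its exon length overlaps another gene, so that reads there were counted for both. Cxcl3, a neutrophil chemoattractant, rose from 1.08 to 4.33 normalized counts in WT to 604 to 655 in Vehicle, a log2 fold change of 7.71.

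The largest decreases included genes of dendritic cells, B cells and neutrophils. Cd209a, a lectin of dendritic cells, had 287, 258 and 244 in WT and 0, 2.15 and 0 in Vehicle, at least 77.2-fold lower. Fcer2a, the low-affinity IgE receptor of mature B cells, had 1355, 1395 and 1447 in WT and 21.6, 26.9 and 43.2 in Vehicle (log2 fold change -5.52, standard error 0.131, adjusted p = 2.75e-32, edgeR). Cd101, a surface protein of mature neutrophils and T cells, fell from 2431 ± 34.0 to 61.3 ± 3.40 (SD, n = 3), and Vnn3, of the vanin family, from 775 ± 72.2 to 28.5 ± 4.43. The others were Chp2, with a log2 fold change of -6.64, the transglutaminase Tgm3 (-6.04), Stxbp6 (-5.28), the transporter Abca9 (-5.19), Cd300lg (-5.00) and the glycosyltransferase Galnt9 (-4.78). The 20 genes with the largest changes were taken from those whose groups did not overlap, which held for 75.8% of all genes.

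**Figure D1:**
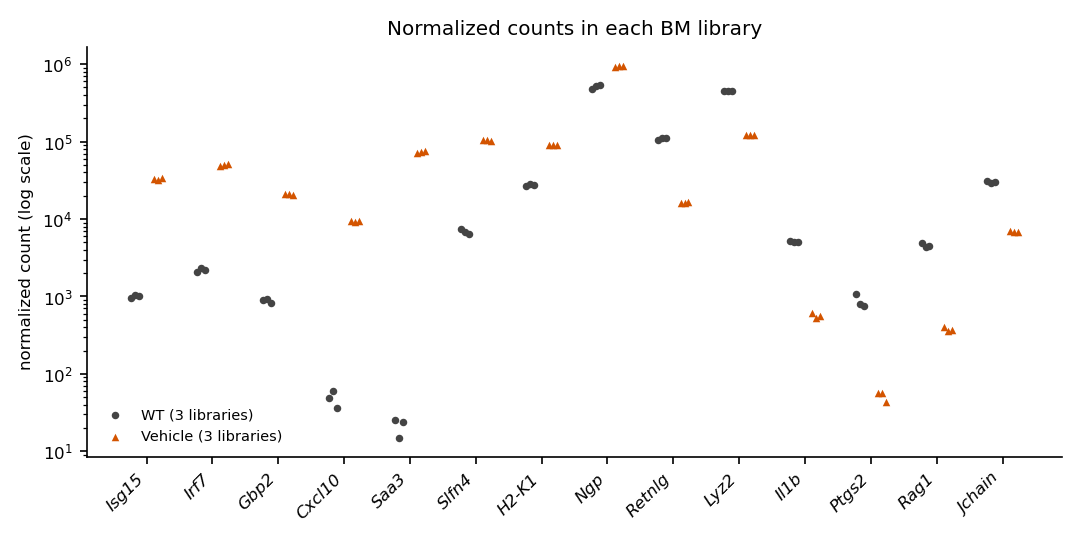
Normalized counts (vertical axis, log scale) of 14 genes in each of the 3 WT (circles) and 3 Vehicle (triangles) BM libraries, each point 1 library. Replicates lie close together and the groups do not overlap, with Isg15 at 958 to 1040 in WT and 31933 to 33374 in Vehicle, and Rag1 at 4419 to 4924 and 362 to 398.

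The promoters of interferon-induced genes are bound at the interferon-stimulated response element (ISRE), by complexes of STAT and IRF factors. The 6 sequences that follow are those of the interferon effectors, GTPases and CXCR3 ligands with the highest level in Vehicle whose promoter, taken from RefSeq (GRCm38.p6, 250 bases before to 50 after the start), holds the letters GAAANNGAA, the core of the element, on either strand. They are shown 5′ to 3′ on the strand of the gene, with each match in capitals.
Isg15 (strand -, chr4:156200836-156200936): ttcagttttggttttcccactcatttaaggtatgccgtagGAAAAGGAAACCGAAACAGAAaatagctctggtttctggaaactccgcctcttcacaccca
Bst2 (strand -, chr8:71537548-71537642): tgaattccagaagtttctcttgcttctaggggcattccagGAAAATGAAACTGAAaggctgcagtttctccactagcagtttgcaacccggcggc
Rsad2 (strand -, chr12:26456523-26456611): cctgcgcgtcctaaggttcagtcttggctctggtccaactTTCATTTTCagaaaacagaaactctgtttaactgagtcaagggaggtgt
Gbp2 (strand +, chr3:142620565-142620653): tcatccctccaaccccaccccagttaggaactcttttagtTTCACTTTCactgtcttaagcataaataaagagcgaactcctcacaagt
Ifit3 (strand +, chr19:34583334-34583475): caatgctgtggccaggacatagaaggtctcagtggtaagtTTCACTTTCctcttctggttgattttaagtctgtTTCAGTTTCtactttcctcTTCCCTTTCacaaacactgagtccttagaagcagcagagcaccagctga
Ifitm3 (strand -, chr7:141010717-141010742): GAAAAGGAAacttctgaGAAACCGAA
The match nearest to the start began 66 bases before it in Isg15, 58 in Gbp2, 102 in Ifit3, 119 in Rsad2 and 124 in Bst2, and both matches of Ifitm3 lay after it. In Isg15 3 matches overlapped one another, and in Ifit3 3 stood apart.

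A promoter was found for 10113 of the 13353 genes tested. The ISRE core was in 9.06% of them, in 154 of the 925 of genes called higher (16.6%), in 86 of the 997 of genes called lower (8.63%) and in 44 of the 148 of genes with a log2 fold change above 3 (29.7%). Among the 39 interferon effectors, GTPases and CXCR3 ligands with a promoter it was in 28 (71.8%). The NF-κB motif GGGANNTTC was in 4.46% of all promoters, 6.05% of those of genes called higher and 4.71% of those called lower. It was in 10.1% of those with a log2 fold change above 3 and in 15.4% of those of the 39 genes. It overlapped an ISRE match in 8 promoter windows. The GAS motif TTCNNNGAA was in 8.62% of all promoters, 12.6% of those called higher and 9.53% of those called lower. It was in 17.6% of those with a log2 fold change above 3 and in 30.8% of those of the 39 genes. The shares of these motifs thus also rose with the fold change. These shares are descriptions of letters in short windows, with no test, and say nothing of what was bound.

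**Figure D2:**
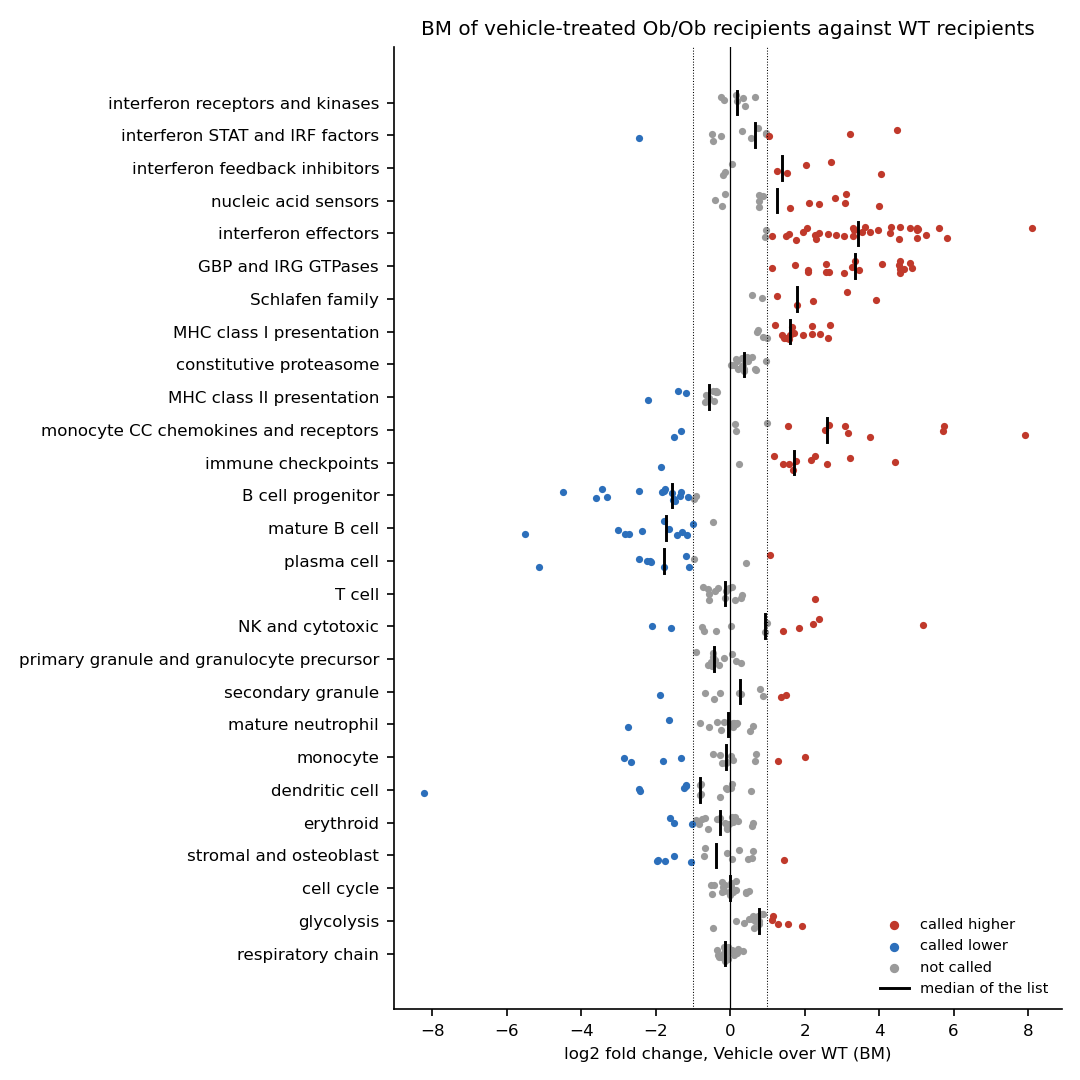
Log2 fold change of Vehicle over WT in BM (horizontal axis) for the tested genes of 27 lists by role and cell type, each point 1 gene, with the median of a list as a bar and dotted lines at -1 and 1. Interferon effectors and GTPases lie to the right with medians of 3.43 and 3.35, and B lineage lists to the left with medians of -1.58, -1.72 and -1.77.

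Nearly all interferon effectors rose. Of 34 tested, 32 were called higher and 0 lower, against 9.44% and 10.02% of all genes, with a median log2 fold change of 3.43, where all genes had -0.02. The counts depend on which genes were listed. Related genes outside the list were Ifit1bl2, called lower (-1.55), and Oas1b and Oas1c, called higher (2.45 and 1.45). Isg15, a ubiquitin-like protein conjugated to targets during infection, had 958, 1040.5 and 1014 normalized counts in the WT libraries and 33006, 31933 and 33374 in the Vehicle libraries (standard error of its log2 fold change 0.0383). Rsad2 (viperin), which makes a chain-terminating nucleotide, had 2861, 2733 and 2733 in WT and 27519.8, 27591 and 26878 in Vehicle (log2 fold change 3.30, standard error 0.0306, adjusted p = 1.42e-46, edgeR). Ifitm3, a membrane protein that blocks viral entry, reached 71437 to 74383 in Vehicle from 8507 to 9168 in WT, a log2 fold change of 3.04. Bst2 (tetherin), which holds budding virions, had 1829, 1594 and 1722 in WT and 23862, 22830.3 and 23038 in Vehicle (3.76 on the log2 scale), and Oas1g, an RNA-activated oligoadenylate synthetase, 139, 118 and 109.8 in WT and 4081, 3992 and 4164 in Vehicle (5.05). Ifit3, which binds foreign RNA in a complex with its relatives, had 512, 497 and 568 in WT and 16891, 17247 and 17103 in Vehicle (5.03). Phf11d, Ifi44 and Apol9b rose by 5.82, 5.27 and 5.61 on the log2 scale, the last from only 8.93 to 16.1 normalized counts in WT, and Apol9a, at 0 to 1 counts in WT, rose at least 41.8-fold. The effectors not called, named for that reason, were Samd9l and Sp100, with log2 fold changes of 0.92 and 0.96. As a whole the list made up 0.195%, 0.195% and 0.192% of counts in WT and 1.19%, 1.18% and 1.18% in Vehicle. Without WT replicate 1, 33 of the 34 were called higher.

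The ligands were barely counted. Of 12 interferon and related ligand genes 2 were tested, and both rose. Ifng, the type II interferon of T and NK cells, had 27.7, 26.8 and 29.1 in WT and 134, 139.6 and 115 in Vehicle (log2 fold change 2.22, standard error 0.257, adjusted p = 4.87e-10, edgeR), with 25.9% of its exons under another gene, and Il27 65.8, 67.5 and 100.1 in WT and 425, 503 and 542 in Vehicle (2.67). The type I interferon genes of the list were not analysed here. None of the 7 receptor and kinase genes was called, with a median of 0.19: Ifnar1, the shared type I receptor chain, had 2859, 2724 and 2730.4 in WT and 3105, 3225 and 3180.2 in Vehicle, and Ifngr1, the ligand-binding chain for interferon-γ, 7649, 7615 and 7679.9 in WT and 8396, 8642 and 8450.2 in Vehicle, log2 fold changes of 0.19 and 0.15.

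The transcription factors of the pathway changed unequally. Of 12 STAT and IRF genes 3 were called higher and 1 lower, with a median of 0.66. Irf7, the factor that amplifies interferon transcription, had 2075, 2327 and 2206 normalized counts in the WT libraries and 48269, 49492 and 50889 in the Vehicle libraries (log2 fold change 4.49, standard error 0.0416, adjusted p = 3.2e-29, edgeR). Stat2, part of the ISRE-binding complex, had 1790.3, 1796 and 1646 in WT and 15986, 16348 and 16169.9 in Vehicle (3.21) and Stat3, which relays IL-6 and IL-10 family cytokines, 5543, 5459 and 5382 in WT and 11310.5, 11341 and 11265 in Vehicle (1.05). Irf1, a factor induced by interferon-γ, had a log2 fold change of 0.96, just under the limit. Irf4, the IRF of B cells, plasma cells and some dendritic cells, fell, with 2215, 2218 and 2258 in WT and 390.1, 404 and 434 in Vehicle (log2 fold change -2.45, standard error 0.0602, adjusted p = 1.01e-31, edgeR), and the myeloid and dendritic factor Irf8 had a log2 fold change of -0.46.

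Of 8 genes listed as feedback inhibitors 5 were called higher and 0 lower, 1 of them Isg20, an interferon-induced antiviral exonuclease and no inhibitor of the pathway. Usp18, which strips Isg15 from proteins and blocks the type I receptor, had 472, 438 and 472 in WT and 7589, 7596 and 7535 in Vehicle (log2 fold change 4.04, standard error 0.0483, adjusted p = 8.74e-43, edgeR), Isg20 2295, 2355 and 2520.5 in WT and 15465, 15283 and 15869 in Vehicle, and Socs1, an inhibitor of JAK kinases, 210.4, 232 and 233 in WT and 975, 855 and 929 in Vehicle (2.03). Cish and Socs3 rose by 1.53 and 1.26 on the log2 scale. The phosphatase Ptpn2 and the hematopoietic phosphatase Ptpn6, which are not interferon-induced in general, had log2 fold changes of -0.13 and -0.20. Of 14 nucleic acid sensors 7 were called higher and 0 lower, among them the Z-nucleic acid sensor Zbp1 with 870.0, 898 and 925 in WT and 14123, 14329.6 and 14208 in Vehicle (3.99), the RNA helicases Ifih1 (2.82), Ddx58 (2.13) and Dhx58 (3.08), the DNA-binding Ifi204 (3.10) and the endosomal receptor Tlr3, with 15.9 to 38.8 counts in WT and 139 to 160 in Vehicle (2.37).

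All 19 GTPases of the GBP and IRG families that were tested were called higher, with a median of 3.35. These proteins coat and break vacuoles that hold bacteria and parasites and are induced mainly by interferon-γ. Gbp2 had 893, 933 and 819 normalized counts in the WT libraries and 21012, 20741 and 20654 in the Vehicle libraries (log2 fold change 4.56, standard error 0.0383, adjusted p = 5.74e-48, edgeR), Irgm1, a regulator of the family, 1636, 1759.6 and 1661 in WT and 10121, 10201 and 9979 in Vehicle (2.58), and Igtp (Irgm3) 1182, 1235 and 1172 in WT and 9898, 9956 and 9797 in Vehicle (3.05). Iigp1, an effector IRG, had 212, 175 and 177 in WT and 4402, 4385 and 4469 in Vehicle (4.55). Tgtp1 and its near-identical copy Tgtp2 rose by 4.88 and 3.35, with reads that could be split between them. Gbp6 and Gbp7 rose by 4.66 and 2.64, with 29.0% and 11.3% of their exon length shared with other genes. The list took 0.0271%, 0.0269% and 0.0266% of counts in WT and 0.216%, 0.215% and 0.212% in Vehicle.

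Schlafen genes, which restrict translation and proliferation in hematopoietic cells, rose in 5 of the 7 listed. The list leaves out Slfn14, called lower (-3.19), and Slfn10-ps, called higher (2.79). Slfn4, of myeloid cells, became one of the most counted genes, with 7369, 6790.4 and 6389 normalized counts in the WT libraries and 103293, 103889 and 101288 in the Vehicle libraries (log2 fold change 3.91, standard error 0.0352, adjusted p = 3.7e-32, edgeR). Slfn5 had 1575, 1427 and 1340.5 in WT and 12797, 12541 and 12587 in Vehicle (3.12), Slfn8 rose by 2.22 and Slfn1 by 1.79, whereas Slfn2 had a log2 fold change of 0.84.

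Many of these genes are neighbors, with other genes between them. On chromosome 11 of GRCm38, from Ccl2 at 82035571 to Ccl4 at 83664683, 36 genes were tested, of which 14 were called higher and 5 lower. This stretch and the other clusters named here were picked after their values were seen. It opens with the monocyte chemokines Ccl2, Ccl7, Ccl12 and Ccl8, goes on through DNA repair and housekeeping genes such as Lig3, Rffl and Rad51d, whose log2 fold changes were -0.08, -0.13 and -0.25, reaches the Schlafen genes, and ends with Ccl5, Ccl9, Ccl6, Ccl3 and Ccl4. Slfn14, a ribosome-associated member of the same family that is expressed in platelets and reticulocytes, fell within the Schlafen group, with a log2 fold change of -3.19, and Ccl6 fell between the chemokines that rose. All 4 tested genes from Gbp5 to Gbp2 on chromosome 3, all 4 from Gbp9 to Gbp6 on chromosome 5 and all 6 from Oas2 to Oas1a on chromosome 5 were called higher. Of 6 Ifit genes on chromosome 19, 5 were called higher and Ifit1bl2 lower, with a log2 fold change of -1.55.

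**Figure D3:**
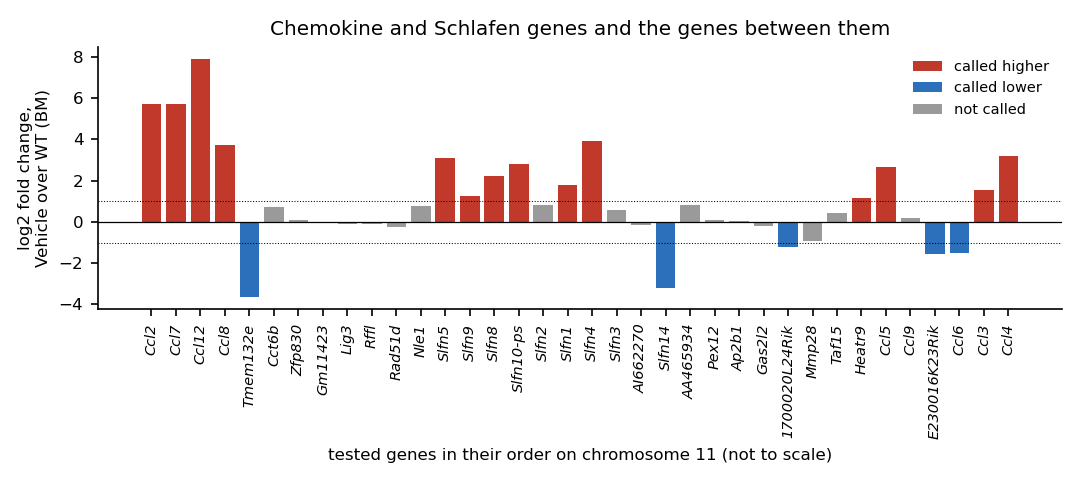
Log2 fold change of Vehicle over WT in BM (vertical axis) of the 36 tested genes from Ccl2 to Ccl4 in their order on chromosome 11 (horizontal axis, 1 bar per gene, not to scale), colored by call, with dotted lines at -1 and 1. Chemokine and Schlafen genes rise to log2 fold changes of 7.90 for Ccl12 and 3.91 for Slfn4, while most genes between them stay between the dotted lines.

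Antigen presentation split by class. Of 18 MHC class I genes 14 were called higher and 0 lower (median 1.59), and of 11 MHC class II genes 3 were called lower and 0 higher (median -0.57). H2-K1, a classical class I heavy chain, had 27082, 28395 and 27852 normalized counts in the WT libraries and 90023, 91462 and 91549 in the Vehicle libraries (log2 fold change 1.71, standard error 0.0240, adjusted p = 2.41e-40, edgeR), and B2m, its light chain, 40688, 41800.1 and 41369 in WT and 133800.1, 128812 and 130561 in Vehicle (1.67). The peptide transporter Tap1 rose by 2.21, the peptide-loading chaperone Tapbp by 2.20 with 29.0% of its exon length shared, and Nlrc5, the transactivator of class I genes, had 936, 948 and 904 in WT and 5878, 6153 and 5764 in Vehicle (2.67). The immunoproteasome subunit Psmb10 rose by 1.96 and the proteasome activator Psme1 by 1.49. None of 18 constitutive proteasome subunits was called, with a median of 0.36 and the highest, Psma5, at 0.96. On the class II side, Ciita, the transactivator of these genes, had 809, 883 and 922 in WT and 336, 299.6 and 349 in Vehicle (log2 fold change -1.41, standard error 0.0941, adjusted p = 1.48e-16, edgeR), H2-Ob, part of a B cell inhibitor of peptide loading, 2547, 2596 and 2454 in WT and 567, 494 and 589 in Vehicle (-2.21) and H2-DMb2 a log2 fold change of -1.18. H2-Aa and Cd74, the most counted class II genes, had log2 fold changes of -0.66 and -0.39, and all 11 members were below 0.

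Most chemokine genes tested rose. The 3 ligands of CXCR3, the receptor of Th1 and NK cells, lie side by side on chromosome 5 and all rose: Cxcl9 with 126, 95.2 and 84.0 in WT and 9317, 9769 and 9575 in Vehicle (log2 fold change 6.53, standard error 0.0967, adjusted p = 1.44e-20, edgeR), Cxcl10 with 48.5, 60.5 and 36.6 in WT and 9445, 9078 and 9446 in Vehicle (7.57) and Cxcl11, at 0 in WT and 272 to 308 in Vehicle, at least 98.1-fold. Of the exon length of Cxcl11 41.7% overlaps another gene, and the annotation gives it as a polymorphic pseudogene. Cxcr3 itself fell, with 247, 275 and 266 in WT and 102, 93.4 and 103 in Vehicle (-1.40).

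Of 14 CC chemokine and receptor genes 9 were called higher and 2 lower. Ccl12 and Ccl7, ligands of CCR2, had 8.66, 2.98 and 0 in WT and 1033, 1009 and 1065 in Vehicle (7.90) and 10.4, 1.98 and 5.38 in WT and 348, 314 and 316 in Vehicle (5.70), while Ccr2, the receptor by which inflammatory monocytes leave the marrow, fell, with 10359, 8206 and 8543 normalized counts in the WT libraries and 3844, 3635 and 3378 in the Vehicle libraries (log2 fold change -1.32, standard error 0.0778, adjusted p = 1.84e-08, edgeR). WT replicate 1 was the highest of the WT libraries, and the groups did not overlap. Ccl8 rose by 3.75, Ccl5 by 2.65 and Ccl22, a chemokine of dendritic cells and macrophages, by 3.08. Ccl6, a chemokine of resting myeloid cells, had 26341, 22176 and 23511 in WT and 8791, 8346 and 8041 in Vehicle (-1.52), and the neighboring Ccl9 a log2 fold change of 0.17. Among 10 neutrophil chemoattractants and receptors 3 ligands were called higher, Cxcl3, Cxcl2 (2.76) and Cxcl1, the last with 0 to 3.97 in WT and 17.01 to 45.6 in Vehicle, and Ppbp (-1.28), a platelet chemokine, and the receptor Cxcr1 (-1.93) were called lower.

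Genes listed as effectors of activated macrophages were mixed. Of 10 tested genes 7 were called higher and 3 lower. Chil3 is also counted among the secondary granule genes below, and counts of whole marrow do not assign these genes to macrophages. Arg1, the arginase that competes with Nos2 for arginine and is classed with alternative activation, rose beside Nos2, with 10.4, 10.9 and 19.4 in WT and 2457, 2550.4 and 2474 in Vehicle (log2 fold change 7.54, standard error 0.122, adjusted p = 3.17e-38, edgeR), while the mitochondrial isoform Arg2 fell (-1.46, 28.1% of its exon length shared). Chil3 (Ym1) had 157654, 155257 and 155061 in WT and 442152, 439399.9 and 436929 in Vehicle (1.49), Hp (haptoglobin) 45148, 47248 and 47826 in WT and 138562, 136323 and 142415 in Vehicle (1.57) and Cd38, an NAD-consuming ectoenzyme, a log2 fold change of 1.27. Ptgs2, the inducible cyclooxygenase, went the other way, with 1078, 795 and 754 normalized counts in the WT libraries and 56.7, 56.9 and 43.2 in the Vehicle libraries (log2 fold change -4.06, standard error 0.176, adjusted p = 1.8e-14, edgeR), and Mrc1 (CD206), the mannose receptor, had 1901, 1695 and 1645 in WT and 237, 212 and 251 in Vehicle (-2.91).

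Of 15 genes of the IL-1 family 5 were called higher and 2 lower. Il1r2, the decoy receptor that soaks up IL-1, had 2414, 2464 and 2299.8 normalized counts in the WT libraries and 41399.9, 42894 and 42369 in the Vehicle libraries (log2 fold change 4.14, standard error 0.0286, adjusted p = 1.33e-50, edgeR), and Il18bp, the soluble inhibitor of IL-18, 359, 335 and 404 in WT and 4183, 4083 and 3980.4 in Vehicle (3.48). Il1b fell, with 5166, 5031 and 5034 in WT and 604, 532 and 555 in Vehicle (-3.17), as did Nlrp3, the sensor of its inflammasome (-1.09). Casp4, the caspase of the noncanonical inflammasome, rose by 2.13, and Il1a by 1.88 from 15.9 to 32.9 normalized counts in WT to 68.0 to 105 in Vehicle. The pore-forming Gsdmd, the adaptor Pycard and Casp1 had log2 fold changes of 0.93, 0.70 and 0.56.

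Genes of the IL-17 cytokines were barely counted, unlike Il17ra, their receptor, at 10896, 11389.8 and 11350.2 in WT and 11616, 12223 and 12179.9 in Vehicle. Of 9 genes of the axis 4 were called higher and 1 lower. Of the 5 genes with at least 10 counts in all 6 libraries, 0 were called higher and 1 lower, so the calls of higher genes rest on genes near 0 in WT. Il17a, the target of the antibody used in other groups, had 0, 0 and 0 in WT and 20.4, 22.6 and 33.6 in Vehicle, at least 8.70-fold higher, and Il17f had 1.73, 0 and 1.08 in WT and 30.6, 33.3 and 32.4 in Vehicle, at least 10.9-fold higher. Without WT replicate 1, 3 genes were called higher. Ccr6, a chemokine receptor of Th17 and B cells, fell (-1.48), and Traf3ip2, the adaptor of the receptor, had a log2 fold change of -0.79.

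Complement and Fcγ receptor genes were mixed. Of 13 complement genes 4 were called higher and 1 lower: C3ar1, the anaphylatoxin receptor, had 72.7, 59.5 and 51.7 in WT and 1022, 917 and 871 in Vehicle (log2 fold change 3.92, standard error 0.120, adjusted p = 2.8e-28, edgeR), and C4b a log2 fold change of 1.30. C3, the central component of the cascade, was highly counted, with 24187, 26110.4 and 25691 in WT and 38672, 40789 and 40362 in Vehicle (0.66). Of 6 Fcγ receptor genes 3 were called higher, Fcgr1 (3.46), Fcgr4 (1.75) and the inhibitory Fcgr2b (1.11), and Fcgrt, the neonatal receptor that recycles IgG, lower (-1.72). In the Ly6 family 5 of 7 were called higher, Ly6a (Sca-1), the stem cell surface antigen, with 1035, 1058 and 1132 in WT and 14803, 14885 and 14959 in Vehicle (3.79), Ly6i with 72.7, 94.2 and 85.1 in WT and 4662, 4972 and 5085 in Vehicle (5.87), and Ly6e and Ly6c1 by 2.04 and 2.55, whereas Ly6d, of B cell precursors, fell (-1.37). Ly6 genes are close in sequence, and their reads could be split among them.

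Checkpoint genes rose in 10 of 12. Ctla4, the inhibitory receptor of regulatory and activated T cells, had 49.4, 44.6 and 48.5 normalized counts in the WT libraries and 992, 1024 and 1029 in the Vehicle libraries (log2 fold change 4.41, standard error 0.127, adjusted p = 2.57e-29, edgeR), and Cd274 (PD-L1) 413, 394 and 351 in WT and 3557, 3647 and 3644 in Vehicle (3.22, 14.1% of its exon length shared). Pdcd1 (PD-1), Havcr2 (TIM-3) and Tigit rose by 2.27, 2.60 and 2.17, the co-stimulatory Cd80 and Cd86 by 1.58 and 1.75, and Lgals9, a ligand of TIM-3, by 1.68. Cd96 fell (-1.85), and Cd40 had a log2 fold change of 0.22.

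Genes of cytotoxic effectors rose and some genes of NK receptors fell. Gzmb (granzyme B) had 203, 244 and 253 normalized counts in the WT libraries and 8411, 8408 and 8375 in the Vehicle libraries (log2 fold change 5.18, standard error 0.0557, adjusted p = 2.16e-44, edgeR), Prf1 (perforin) 227, 214 and 229 in WT and 1105, 1228 and 1167 in Vehicle (2.38), Gzma a log2 fold change of 1.85 and Il2rb, the receptor chain for IL-2 and IL-15, 1.42. Ncr1 (NKp46), a defining NK receptor, fell, with 319, 287 and 327 in WT and 78.2, 64.4 and 75.6 in Vehicle (-2.10), Klrg1 fell (-1.60) and Klrb1c (NK1.1) had a log2 fold change of -0.72. Of 13 genes of the list 5 were called higher and 2 lower. Of 14 T cell genes 1, Icos, an activation receptor, was called higher, with 40.7, 46.6 and 43.1 in WT and 242, 181 and 204 in Vehicle (2.26), and 0 lower, where Cd3d, Cd3g and Lck had log2 fold changes of -0.58, -0.72 and -0.40. In whole marrow, fewer cells of a type and less RNA per cell cannot be told apart, here and in the lineages that follow.

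B lineage genes fell at every stage. Of 17 progenitor genes 15 were called lower and 0 higher (median -1.58), against 10.02% of all genes called lower, and of 12 mature B cell genes 11 and 0 (median -1.72). The largest decreases of the progenitor list were of genes of V(D)J recombination. Rag1, of the recombinase, had 4924, 4419 and 4503 normalized counts in the WT libraries and 398, 362 and 367 in the Vehicle libraries (log2 fold change -3.62, standard error 0.0627, adjusted p = 6.11e-36, edgeR), its partner Rag2 675, 588 and 573 in WT and 23.8, 17.2 and 42.0 in Vehicle (-4.49), and Dntt, which adds nucleotides at the joints, 2462, 2491 and 2549.5 in WT and 219, 231 and 239 in Vehicle (-3.45). The surrogate light chain genes Vpreb2 and Vpreb3 fell by 3.32 and 2.46, against a smaller decrease of Cd79b (-1.79), a chain of the B cell receptor complex. Among mature markers, Cr2, the complement receptor of B cells, had 551, 469 and 523 in WT and 72.6, 74.1 and 68.4 in Vehicle (-2.84), Ms4a1 (CD20) 6546, 5112 and 5275 in WT and 1180.5, 1089 and 981 in Vehicle (-2.38), Fcrla 5999, 6174 and 5930.3 in WT and 699.7, 781 and 764 in Vehicle (-3.01) and Bank1, a B cell scaffold, a log2 fold change of -2.71, and Cd37 was not called (-0.47). The progenitor list made up 0.165%, 0.174% and 0.170% of counts in WT and 0.0454%, 0.0465% and 0.0470% in Vehicle. Without WT replicate 1, 16 of 17 and 11 of 12 were called lower.

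Plasma cell genes fell in 8 of 11. Jchain, which links secreted IgM and IgA, had 31163, 29606 and 30105 normalized counts in the WT libraries and 7017, 6887 and 6868 in the Vehicle libraries (log2 fold change -2.13, standard error 0.0265, adjusted p = 3.43e-42, edgeR), Mzb1, an antibody-folding cofactor with 57.2% of its exon length shared, 2728, 2745 and 2509.7 in WT and 559, 558 and 591 in Vehicle (-2.23), and Sdc1 (CD138) 715, 821 and 798 in WT and 155, 168 and 197 in Vehicle (-2.17). Tnfrsf17 (BCMA), the survival receptor of plasma cells, had 49.4, 34.7 and 49.5 in WT and 0, 2.15 and 1.20 in Vehicle, at least 13.1-fold lower. Prdm1 (Blimp-1), which other activated lymphocytes and macrophages also express, rose (1.05), and Xbp1, common to secretory cells, had a log2 fold change of 0.43.

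Few granulocyte genes were called, although some of these changed by a large factor. None of 12 primary granule and precursor genes was called (median -0.44), with Mpo, the myeloperoxidase of promyelocytes, at 84517, 95775 and 91982 in WT and 58632, 60204 and 60588 in Vehicle. Of 10 secondary granule genes 2 were called higher, Chil3 and Lcn2 (1.37), and 1, Lyz2, lower. Ngp, the neutrophilic granule protein and the most counted gene of the list, had 481359, 524215 and 531342 in WT and 914856, 944303 and 956903 in Vehicle (0.87), Ltf (lactoferrin) 270602, 290415 and 285676 in WT and 202455, 209328 and 211541 in Vehicle (-0.44) and Camp (cathelicidin) a log2 fold change of -0.26. Of 14 mature neutrophil genes 2 fell. Retnlg, a resistin-like protein of mature neutrophils, had 104938, 110044 and 111090.2 normalized counts in the WT libraries and 16277, 16167 and 16485 in the Vehicle libraries (log2 fold change -2.74, standard error 0.0231, adjusted p = 5.74e-48, edgeR), and Csf3r, the receptor for G-CSF, 18202, 18832 and 18235 in WT and 5633, 5928 and 6035 in Vehicle (-1.65). S100a9 had 1674419.9, 1629285 and 1659106 in WT and 1826127, 1833853 and 1869554 in Vehicle (0.16), and the adhesion molecule Itgam (CD11b) a log2 fold change of -0.16, with 68.7% of its exon length shared. The phagocyte oxidase genes were not called in any of 6, with Cybb, its catalytic subunit, at a log2 fold change of -0.14.

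Monocyte and macrophage markers split. Of 15 monocyte genes 2 were called higher and 4 lower. Ly6c2, of inflammatory monocytes and itself interferon-inducible, had 22276, 24417 and 23625 in WT and 90273, 95359 and 96397 in Vehicle (2.00), while Cx3cr1, the fractalkine receptor of patrolling monocytes, had 1336, 1259 and 1315 normalized counts in the WT libraries and 211, 201 and 203 in the Vehicle libraries (log2 fold change -2.67, standard error 0.0776, adjusted p = 4.02e-29, edgeR), and Klf4, the factor that specifies monocytes, 1712, 1700.1 and 1630.1 in WT and 204, 217 and 281 in Vehicle (-2.85). S100a4 fell (-1.80, 51.7% shared), Nr4a1, the factor of patrolling monocytes and of early activation, rose (1.29), and F13a1 and Mpeg1 had log2 fold changes of -0.26 and 0.68. Of 17 resident macrophage genes 5 were called higher and 3 lower. Slc40a1 (ferroportin), the iron exporter of macrophages that recycle red cells, had 9437, 8461 and 8343 in WT and 1870.0, 1668 and 1591 in Vehicle (-2.36), and Cd5l, a secreted protein of the same cells, fell (-1.53). Hmox1, which breaks down heme (1.06), Mertk, which clears dying cells (1.35), Timd4 (1.87) and Siglec1, another interferon-inducible gene (1.20), rose, and Vcam1 and Axl had log2 fold changes of -0.33 and 0.59.

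Dendritic cell genes were called lower in 6 of 16 and higher in 0. Irf4, called lower, is also in the plasma cell list. The dendritic list also holds the NK receptor gene Klrd1, with 238 to 396 in WT and 121 to 130 in Vehicle. Siglech and Bcl11a, listed for plasmacytoid dendritic cells, the professional source of type I interferon, fell (-1.19 and -1.19), and Itgax (CD11c) and Clec10a had log2 fold changes of -0.80 and -0.79. Which cells these counts came from was not tested. Eosinophil genes were called lower in 3 of 10, Ccr3, the eotaxin receptor, with 609, 461 and 473 in WT and 102, 88.1 and 68.4 in Vehicle (-2.58), Ear2 (-1.52) and Siglecf (-1.34), where the granule genes Prg2 and Epx had log2 fold changes of -0.52 and -0.22. Of 10 basophil and mast cell genes 1 was called higher and 0 lower, Hdc, which makes histamine, with 8914, 9791 and 9625 in WT and 24840.2, 25925 and 26232 in Vehicle (1.44), and the basophil proteases Prss34 and Mcpt8 at 0.60 and 0.31.

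Erythroid genes were called lower in 3 of 21, a share near the 10.02% of all genes, and higher in 0 (median -0.26). These were Trim10, of terminal maturation, with 1695, 1705 and 1795 in WT and 566, 609 and 503 in Vehicle (-1.63), Bpgm, which tunes hemoglobin, with 5083, 5371 and 5427 in WT and 1844, 1802 and 1909.8 in Vehicle (-1.52), and Rhd (-1.04). Alas2, the first enzyme of heme synthesis, and the transferrin receptor Tfrc had log2 fold changes of -0.92 and -0.59. Of 16 platelet genes 3 were called lower, against 10.02% of all genes, Ppbp, Treml1 (-1.31) and Gp5 (-1.02), and 1, Selp (P-selectin), higher (1.41).

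Stem and progenitor genes showed no common direction, with 3 of 17 called higher and 1 lower. Procr (EPCR), a surface marker of stem cells and of endothelium, had 10.4, 22.8 and 21.5 in WT and 344, 359 and 414 in Vehicle (log2 fold change 4.37, standard error 0.222, adjusted p = 1.04e-20, edgeR), Hoxa9 rose by 1.09, and Myb, the factor of immature cells, fell, with 6465, 6665 and 6524 in WT and 2925, 2986 and 2846 in Vehicle (-1.17). Kit and Cd34 had log2 fold changes of -0.70 and -0.83, Gata2 0.65 and Spi1 (PU.1) 0.48. None of 20 cell cycle genes was called (median 0.00), with Mki67 at 16038, 16367 and 16978 in WT and 21394, 22473 and 22668 in Vehicle (0.43) and Pcna, the replication clamp, at a log2 fold change of -0.52.

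The genes that feed back on RAS and ERK, downstream of Shp2, were mixed. Of 15 tested 4 were called higher, Etv4 with 0 to 4.31 in WT and 48.0 to 65.5 in Vehicle (4.39), Spred3 (2.84), Spred1 (1.05) and Ccnd1 (1.04), and Egr1, an immediate target of ERK, lower, with 4389, 4136 and 4221 in WT and 1400.5, 1470.1 and 1365 in Vehicle (log2 fold change -1.59, standard error 0.0348, adjusted p = 1.59e-33, edgeR). Dusp6, the ERK phosphatase commonly read as a sign of ERK activity, had 3669.8, 3497 and 3330.1 in WT and 2724, 2722 and 2772 in Vehicle (-0.35). Among 14 immediate early genes 4 were called higher and 4 lower. Fosb and Egr3 fell by 2.28 and 1.76 on the log2 scale, Fosl1, with 57.2% of its exon length shared, rose (4.12), and Fos and Jun had log2 fold changes of -0.66 and 0.88.

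Stromal cells, which form the niche of stem cells, are host cells that a transplant mostly leaves in place. Of 14 stromal and osteoblast genes 5 were called lower and 1 higher. Cxcl12, the chemokine that retains stem cells and B cell precursors in the marrow, had 2827, 2760.4 and 2749.8 normalized counts in the WT libraries and 824, 788 and 875 in the Vehicle libraries (log2 fold change -1.75, standard error 0.0459, adjusted p = 1.07e-30, edgeR). Kitl, the stem cell factor, fell with 171, 139 and 136 in WT and 36.3, 74.1 and 45.6 in Vehicle (-1.51), as did Bglap (osteocalcin, -1.97) and Pdgfra (-1.06), all at low counts, and Dcn rose (1.44), while Col1a1 and Col1a2 had log2 fold changes of 0.58 and 0.24. Endothelial genes split 4 higher and 4 lower of 11: Cdh5 and Kdr, of vessel walls, rose, Kdr by 1.88, and Stab2 and Plvap, of sinusoids, fell (-2.34 and -1.49). Of 8 adipocyte genes 3 were called lower and 1 higher, Fabp4, which vessels and macrophages also express, with 811, 897 and 899 in WT and 259, 210.5 and 229 in Vehicle (-1.90), Pparg, the adipocyte master factor, with 205, 222 and 233 in WT and 65.8, 41.9 and 58.8 in Vehicle (-1.99), and Retn (-1.60), and Adipoq (adiponectin), the defining marker, had 147, 138 and 117 in WT and 81.7, 52.6 and 70.8 in Vehicle (-0.98), just short of the limit. Plin4 was called higher at 10.9 to 19.9 in WT and 31.1 to 37.2 in Vehicle. The adipocyte list made up under 0.01% of the counts in every library.

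Of 18 glycolysis genes 5 were called higher and 0 lower (median 0.76), the glucose transporter Slc2a1 with 744, 795 and 701 in WT and 2810.0, 2961 and 2808 in Vehicle (log2 fold change 1.94, standard error 0.0511, adjusted p = 1.26e-30, edgeR), the phosphofructokinases Pfkp (1.54) and Pfkl (1.28), Tpi1 (1.15) and Gapdh (1.13). No respiratory chain gene of 18 was called (median -0.13). Cholesterol synthesis genes were called lower in 4 of 18, against 10.02% of all genes, Idi1 (-1.61), Msmo1 (-1.39), Dhcr7 (-1.16) and Mvk (-1.15). Dhcr7 and Mvk did not pass a test against the limit itself, like other named genes that are listed at the end. Of 15 genes of lipid efflux and storage 3 were called higher and 2 lower. Plin2, the coat of lipid droplets, had 4615, 5249 and 5309 in WT and 16876, 17267 and 17546 in Vehicle (1.77), Soat2, which esterifies cholesterol, 121, 113 and 114 in WT and 458, 413 and 443 in Vehicle (1.91), and Cd36, the fatty acid uptake receptor, 1566, 1181 and 1369.5 in WT and 318, 289 and 294 in Vehicle (log2 fold change -2.20, standard error 0.0784, adjusted p = 4.18e-22, edgeR). Acadl alone of 16 fatty acid oxidation genes was called, with 4211, 4179 and 4267 in WT and 10662, 10434 and 10791 in Vehicle (1.33).

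Of 14 antioxidant genes 4 were called higher, against 9.44% of all genes, and 1 lower, against 10.02%. Sod2, the mitochondrial superoxide dismutase, had 1491, 1366 and 1324 in WT and 5375, 5585 and 5887 in Vehicle (2.01), the metallothioneins Mt1 and Mt2 rose by 1.55 and 2.39, the latter with 73.5% of its exon length shared, and Nqo1, a target of NRF2, fell (-1.04). Of 12 genes of the unfolded protein response Trib3 was called higher (2.04) and Dnajb9, a chaperone that plasma cells express highly, lower (-1.01), while Hspa5 (BiP) had a log2 fold change of 0.16.

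BM libraries of treated Ob/Ob recipients were read beside both groups, with no test, since the genes were chosen for their difference between Vehicle and WT. In all 9 libraries of mice given the GLP-1R agonist beinaglutide, the anti–IL-17A antibody or both (Combo), each of the 32 called interferon effectors lay below each of the 3 Vehicle libraries, and 24 of the 32 lay below each WT library as well. The same held for 19 and 16 of the 19 GTPases and for 14 and 11 of the 14 class I genes called. Isg15 had 229 to 268 with the GLP-1R agonist, 323 to 365 with the antibody and 165 to 203 with Combo, below the 958 to 1040 of WT. Cxcl10 had 28.1 to 36.8, 33.3 to 52.8 and 35.0 to 42.8, where WT had 36.6 to 60.5. High levels of both genes were thus seen in the Vehicle group and in no other of the 5 groups. Of the 15 B cell progenitor genes called lower, 0 had all 9 treated libraries on the WT side of Vehicle, against 565 of 1338 over all genes called lower. Of the 11 mature B cell genes called lower, 2 had. Rag1 had 1179 to 1357 with the antibody, between the 362 to 398 of Vehicle and the 4419 to 4924 of WT, against 160.3 to 181 with the GLP-1R agonist and 336 to 404 with Combo. Cd79a had 4331 to 4510.0 with the antibody, which overlapped the 4345 to 4685 of Vehicle, 1276 to 1298 with the GLP-1R agonist and 1330.0 to 1360.0 with Combo. Of the 8 plasma cell genes called lower, 3 had all 9 treated libraries on the WT side of Vehicle. Over all genes, 923 of 1260 called higher and 565 of 1338 called lower had all 9 treated libraries on the WT side of Vehicle. All 9 lay beyond each WT library as well for 166 of the 1260 and 11 of the 1338.

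Xist differed among the treated groups too. It had 0 to 5.62 normalized counts with the GLP-1R agonist, 88.3 to 113 with the antibody and 3528 to 3657 with Combo, and Ddx3y had 1802 to 2015, 1460.0 to 1488 and 147 to 177. Lipg, a lipase called higher in Vehicle, had a high level in Combo too, with 6988 to 7321 in Combo beside 10990.0 to 11200.0 in Vehicle and 49.6 to 80.8 in WT.

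**Figure D4:**
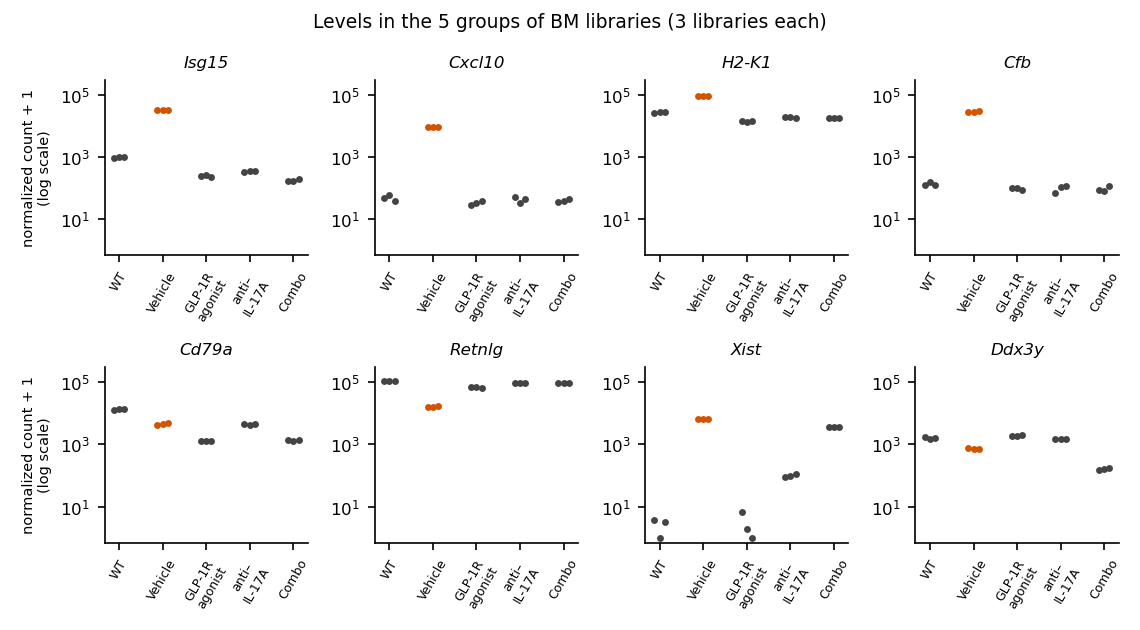
Normalized counts plus 1 (vertical axis, log scale) of 8 genes in the 5 groups of BM libraries, each point 1 of 3 libraries, with Vehicle in orange. Isg15, Cxcl10, H2-K1 and Cfb are highest in Vehicle, Cd79a is highest in WT, Retnlg is lowest in Vehicle, and Xist is high in Vehicle and Combo.

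The same contrast was tested in F4/80+ adipose tissue macrophages (ATMs), sorted from fat in the same study with 3 libraries per group, as a difference of log2 fold changes, BM minus ATMs. It was called for 3749 of 13076 genes (28.7%), 2196 higher in BM and 1553 lower. ATM replicates varied more, with a coefficient of variation of 32.5%, so p-values over both tissues rest on an average spread, and the labels do not say which BM and ATM libraries came from 1 mouse. The interferon genes rose in both tissues. All 34 effectors and all 19 GTPases were called higher in ATMs in a separate fit to the ATM libraries alone, with medians of 4.14 and 3.34. The difference was called for 11 and 6 of them. Isg15 had a log2 fold change of 5.24 in ATMs (difference -0.21, standard error 0.0894, adjusted p = 0.0435, edgeR) and Stat2 3.26 (difference -0.05, standard error 0.135, adjusted p = 0.765, edgeR), whereas Irf7 rose more in ATMs, by 5.52 (difference -1.03, standard error 0.0829, adjusted p = 4.39e-11, edgeR).

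Chemokine, class II and granule genes had differences called. Cxcl10 had a log2 fold change of 3.42 in ATMs (difference 4.15, standard error 0.123, adjusted p = 2.56e-20, edgeR) and was already high in WT ATMs, with 12656 to 14850 counts per library. Il1b rose in ATMs, by 2.68, where it fell in BM (difference -5.86, standard error 0.0888, adjusted p = 1.12e-26, edgeR). MHC class II genes fell further in ATMs, with a median of -2.32 and 9 of 11 differences called, H2-Aa at -2.32 (difference 1.66, standard error 0.0488, adjusted p = 2.03e-20, edgeR). Secondary granule genes had a median of 5.45 in ATMs and 8 of 10 differences called. Ltf rose there by 5.48 (difference -5.92, standard error 0.0781, adjusted p = 4.85e-28, edgeR), from 1374 to 1406 counts per WT library to 45532 to 52979 per Vehicle library, and Retnlg rose by 3.86 where it fell in BM (difference -6.60, standard error 0.0698, adjusted p = 3.5e-30, edgeR). Granule genes are made by granulocyte precursors, and their part in the other ATM results was not tested. Ctla4 had a log2 fold change of 0.38 in ATMs (difference 4.03, standard error 0.190, adjusted p = 5.3e-16, edgeR), under the limit.

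**Figure D5:**
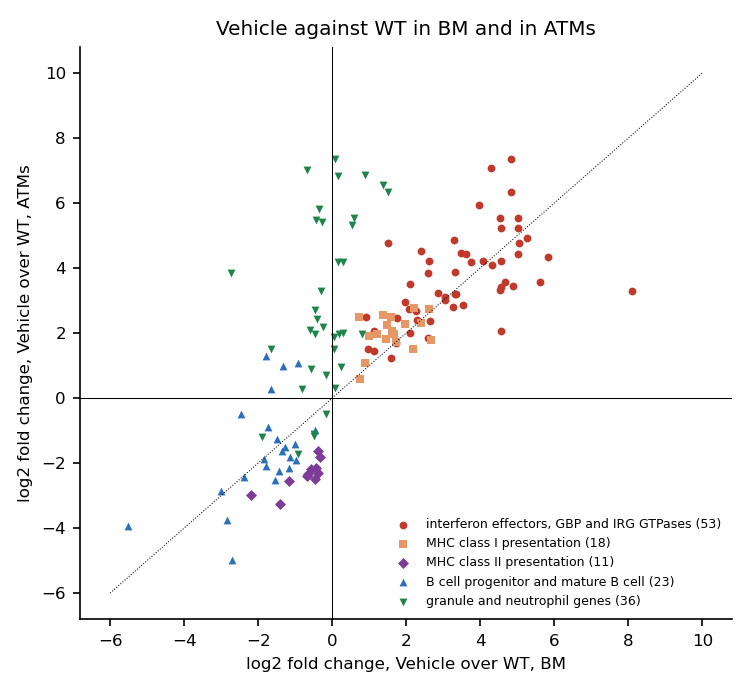
Log2 fold change of Vehicle over WT in ATMs (vertical axis) against that in BM (horizontal axis), each point 1 gene of 5 sets of lists, with a dotted line where both are equal. Interferon genes lie on both sides of the line at upper right, granule and neutrophil genes rise in ATMs with medians for BM near 0, and class II genes lie below the line.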

How the data were processed

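Total RNA of whole BM from 3 mice per group was sequenced as poly(A) libraries, and the authors aligned reads with STAR 2.7.2a to mm10 and counted them per gene with featureCounts 2.0.1 on GENCODE annotation, without strand and with reads on overlapping genes counted for each. The deposited values are these raw counts, with no normalization by the authors; the 13353 genes of the BM table and 17059 of the ATM table had been filtered, with a smallest total of 55 counts in BM, and no filter is given in the sources used here. Counts with overlap or with near-identical copies are therefore uncertain, and exon overlap was computed from GENCODE M21, an earlier release than theirs. Genes with no row, such as mitochondrial and hemoglobin genes, were not analysed here.

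The quasi-likelihood test of edgeR 4.0.16 (R 4.3.3, TMM, robust, filterByExpr, which removed 0 genes) was fitted to all 15 BM libraries, and to all 30 for the tissue difference. Log2 fold changes and calls within ATMs came from a fit to the ATM libraries alone. The methods of the study use DESeq2, run here as an alternative (1.42.0). Normalized counts are counts scaled to the mean effective library size. Where all libraries of a group had at most 3 counts, a fold is a lower bound against 3 counts per library. Depth gave 31281097 to 39925495 counts per library. Tested on simulated data, edgeR recovered 200 of 200 changed genes in the BM comparison with 1 other called, and 185 of 200 in the tissue difference with 4 others. The tissue simulation gave BM and ATM libraries 1 pooled spread (14.5%), where the data had 3.51% and 32.5%. It therefore cannot tell how many tissue differences are called wrongly under unequal spread.

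The genes and lists were chosen with earlier results of these data known. Genes were named when among the 10 largest changes each way (at least 100 normalized counts, groups apart), among up to 6 members of a list by change or by level, called against their list, model or sex-linked genes, or with a printed promoter; Slfn14 and Ifit1bl2, Samd9l and the genes between the chemokines of chromosome 11 fall outside this. Promoters are from RefSeq (GRCm38.p6). Same-numbered libraries of both groups had correlated deviations of 0.178, 0.0450 and 0.0745, so the numbers were not taken as pairs. Some genes are not reported here.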

Additional observations from a re-analysis of the deposited data

Results flagged for a closer look

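The effect of Vehicle over WT differed between BM and ATMs for 3749 genes by the interaction test of edgeR. Genes with at most 3 counts in every library of 1 group were left out. Among the others of the 20 genes with the largest changes in BM, the difference of log2 fold changes, BM minus ATMs, was called for 5 that rose and 5 that fell. Over all genes it was called for 28.7%. These genes were picked by their change in BM, which is part of this difference. A called difference in the direction of BM was therefore favored in advance, and the calls are given as description only. Ccl12 and Cxcl3 were still near 0 in WT BM (0 to 8.66 and 1.08 to 4.33 normalized counts), as were Tgm3 and Stxbp6 in Vehicle BM (0 to 6.44 and 5.37 to 11.3). Saa3 rose in both tissues, with a difference of 2.65 (adjusted p = 1.35e-13, edgeR). Ccl12 had a difference of 5.27, Cfb of 5.11, Cxcl3 of 3.83 and Cxcl10 of 4.15, and each also rose in ATMs, where WT levels were higher than in BM. Cd300lg, of endothelium in many tissues, had a difference of -4.86 and a log2 fold change of -0.14 in ATMs, where it was well counted. Vnn3 had a difference of -6.52, Tgm3 of -5.07 and Cd101 of -3.79, all at low counts in ATMs, and Stxbp6 of -2.29 (adjusted p = 0.0324, edgeR). The Xist and Y-linked counts went with these groups in ATMs as well, with 12, 8 and 24 Xist counts in the WT and 747, 830 and 1024 in the Vehicle libraries, and their part in these differences was not tested.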

How the results depend on the processing

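The counts of called genes depended mainly on the fold-change limit. Without it, 10227 genes passed the false discovery rate, 5052 higher and 5175 lower, and the tissue difference rose to 7328 genes. Testing against the limit itself (edgeR's glmTreat) left 1696 genes, 820 of them lower. It ended the calls of Ccnd1, Dhcr7, Dnajb9, Gp5, Hoxa9, Mvk, Nlrp3 and Nqo1. The calls of Pdgfra, Prdm1, Retn, Rhd, Spred1, Stat3 and Treml1 ended as well. Requiring 10 counts in every library, which removes genes absent from 1 group, left 1922. DESeq2 called 2586 genes, of which 2561 were shared, and upper-quartile scaling shifted the median log2 fold change of all genes to -0.11 and called 1119 higher and 1558 lower. Leaving out each library gave 2561 to 2608 called genes in BM and 3641 to 3896 for the tissue difference. The replicate block gave 2595 called genes in BM and 3729 for the tissue difference, which ended no call of a named gene, and 1 of 3 correlations of same-numbered libraries was above 0.1. None of the 262 genes with a log2 fold change in the text reversed under an alternative run, Samd9l and the genes between the chemokines of chromosome 11 aside, which were not recomputed.

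Calls ended near the limit. Hoxa9 had a log2 fold change of 0.97, Dnajb9 of -0.93 and Gp5 of -0.99 without WT replicate 1. Pdgfra had -0.72 and Spred1 0.99 without Vehicle replicate 1, Prdm1 0.97 without Vehicle replicate 2, and Nqo1 -0.96 without Vehicle replicate 3 or WT replicate 2. With upper-quartile scaling Stat3, Ccnd1, Hmox1, Hoxa9, Prdm1 and Spred1 fell under the limit, and Alas2 and Adipoq passed it as lower, Adipoq also without Vehicle replicate 1 (-1.13) and without WT replicate 3 (-1.07). The cause of these shifts was not tested. Depth limits the genes counted at a few reads in 1 group, such as Etv4 and Cxcl1.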
